A study of Liolophura hirtosa with 16 samples.

Results

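Of the 493 chiton sequences on the array, 19 had a foot muscle level at least 0.5 log2 units above the level in each of the 3 sections of the radula, and they were carried by 87 of the 2240 probes. They were selected on that difference, so the gap between foot muscle and radula is given as a description, without a test. The animal was Acanthopleura hirtosa, which the labels list as Liolophura hirtosa. RNA came from wild adults, and each of the 4 tissues was represented by 4 pools of 3 animals, which is 12 animals per tissue. Each pool had 1 single-colour Cy5 array, 16 arrays in all. The sources used here do not say whether same-numbered pools of different tissues held the same animals. The main fit treated the 16 arrays as independent. The tissues were foot muscle, the radula section with immature teeth, the section with iron-deposited teeth and the section with calcium-deposited teeth, called foot muscle, immature, iron and calcium below. No group was treated or genetically altered, and each pool averaged its animals, so that differences between single animals were not measured.

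Foot muscle in a chiton is the contractile tissue of the broad sole with which the animal clings to rock and creeps. The radula is a ribbon of teeth that is built at one end and moved forward, so that successive rows are successive stages of tooth mineralization. A dissected radula section is a mixture that can hold epithelium, forming teeth and other attached tissue, and in whole-tissue RNA fewer cells of a type and less RNA per cell cannot be told apart.

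A level here is the log2 of a probe's signal divided by the mean signal of its array, scaled so that all 16 arrays share 1 distribution, and averaged over the 4 or 5 probes of a sequence. A level of 0 is therefore the array mean, and the median probe lay at -1.51, because most probes were dim. The files gave no gene name for any probe, and lists of 10 muscle keywords and 8 keywords for other tissues matched 0 probes, so the labelled tissues could not be checked against markers and the sequences are called by their clone or contig names. Positions are bases within the named sequence and not places in a genome. Across probes, the Pearson r between pairs of foot muscle arrays was 0.964 to 0.986, and its median was 0.696 between foot muscle and immature, 0.723 between foot muscle and iron and 0.834 between foot muscle and calcium arrays. Probes are not independent replicates, and these correlations are descriptions.

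The identity of 4 arrays is disputed between the deposited sources, all of them radula arrays. The value table's columns for immature replicates 2 and 4 match the scanner files recorded for calcium replicates 2 and 4, and the reverse, whereas the 4 foot muscle arrays, the 4 iron arrays and the remaining 4 matched their own files. With the columns of the value table, r across probes was 0.973 to 0.99 among immature arrays and 0.95 to 0.988 among calcium arrays, and 0.717 to 0.778 between immature and calcium arrays. Levels below follow the value table, and results are repeated with the disputed arrays left out (n = 2 for immature and calcium) and with the scanner files as recorded.

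The 5 sequences with the widest gap between foot muscle and the nearest section were Contig[0113], PlateD-C9-5-SMART, Contig[0222], Plate-B-E3-5-SMART and Plate-C-F10-5-SMART. For each, the probe with the widest gap is shown, because these are the array sequences whose signal sets the foot muscle group apart most clearly. Each is given 5′ to 3′ with its first and last base in the sequence.
Contig[0113], bases 49 to 83: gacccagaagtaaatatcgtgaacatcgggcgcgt
PlateD-C9-5-SMART, bases 584 to 618: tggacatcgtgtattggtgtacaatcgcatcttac
Contig[0222], bases 238 to 272: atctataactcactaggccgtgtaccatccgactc
Plate-B-E3-5-SMART, bases 171 to 209: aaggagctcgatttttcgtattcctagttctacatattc
Plate-C-F10-5-SMART, bases 57 to 91: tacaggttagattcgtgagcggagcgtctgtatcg

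Contig[0113] had levels of 2.27, 2.77, 2.92 and 2.50 in the foot muscle pools, against -1.12, -1.32, -1.19 and -1.35 in immature, 0.02, -0.15, 0.17 and 0.14 in iron and 0.35, 0.39, 0.80 and 0.55 in calcium pools. The 4 tissues did not overlap, and the order was foot muscle, calcium, iron, immature. Its foot muscle mean of 2.61 ± 0.29 (SD, n = 4) was 14.5-fold above immature, 5.93-fold above iron and 4.26-fold above calcium, the widest gap of the 19 sequences. Contig[0222] reached a similar foot muscle level and a lower immature level. Its levels were 2.85, 2.60, 2.69 and 2.78 in foot muscle, against -1.88, -1.56, -1.69 and -1.59 in immature, -0.77, -0.80, -0.70 and -0.93 in iron and 1.02, 0.86, 0.90 and 1.04 in calcium pools. The 4 tissues again did not overlap, and foot muscle was 21.3-fold above immature, 11.6-fold above iron and 3.42-fold above calcium. The immature level of Contig[0222], -1.68 ± 0.14 (SD, n = 4), lay below the median of all probes.

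PlateD-C9-5-SMART had 2.0, 1.76, 1.93 and 1.78 in foot muscle, against -0.87, -0.98, -0.93 and -1.01 in immature, -0.54, -0.71, -0.59 and -0.66 in iron and 0.07, 0.00, 0.16 and 0.00 in calcium pools. Foot muscle was 7.03-fold above immature, 5.63-fold above iron and 3.50-fold above calcium, with no overlap between any tissues. Plate-C-F10-5-SMART had 0.80, 0.61, 1.01 and 0.74 in foot muscle, against -1.45, -1.68, -1.60 and -1.57 in immature, -1.18, -1.31, -1.39 and -1.43 in iron and 0.08, -0.24, -0.13 and -0.28 in calcium pools. Here immature and iron lay close together near the dim end of the array, while calcium stood between them and foot muscle, which was 5.14-fold above immature and 1.91-fold above calcium. Plate-B-E3-5-SMART lacked the calcium step. It had 0.05, -0.10, 0.33 and 0.01 in foot muscle, against -1.68, -1.64, -1.78 and -1.64 in immature, -1.06, -1.18, -1.13 and -1.17 in iron and -1.12, -1.24, -1.09 and -1.21 in calcium pools. Iron and calcium overlapped and both lay above immature, and foot muscle was 2.31-fold above iron and 2.36-fold above calcium.

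**Figure D1:**
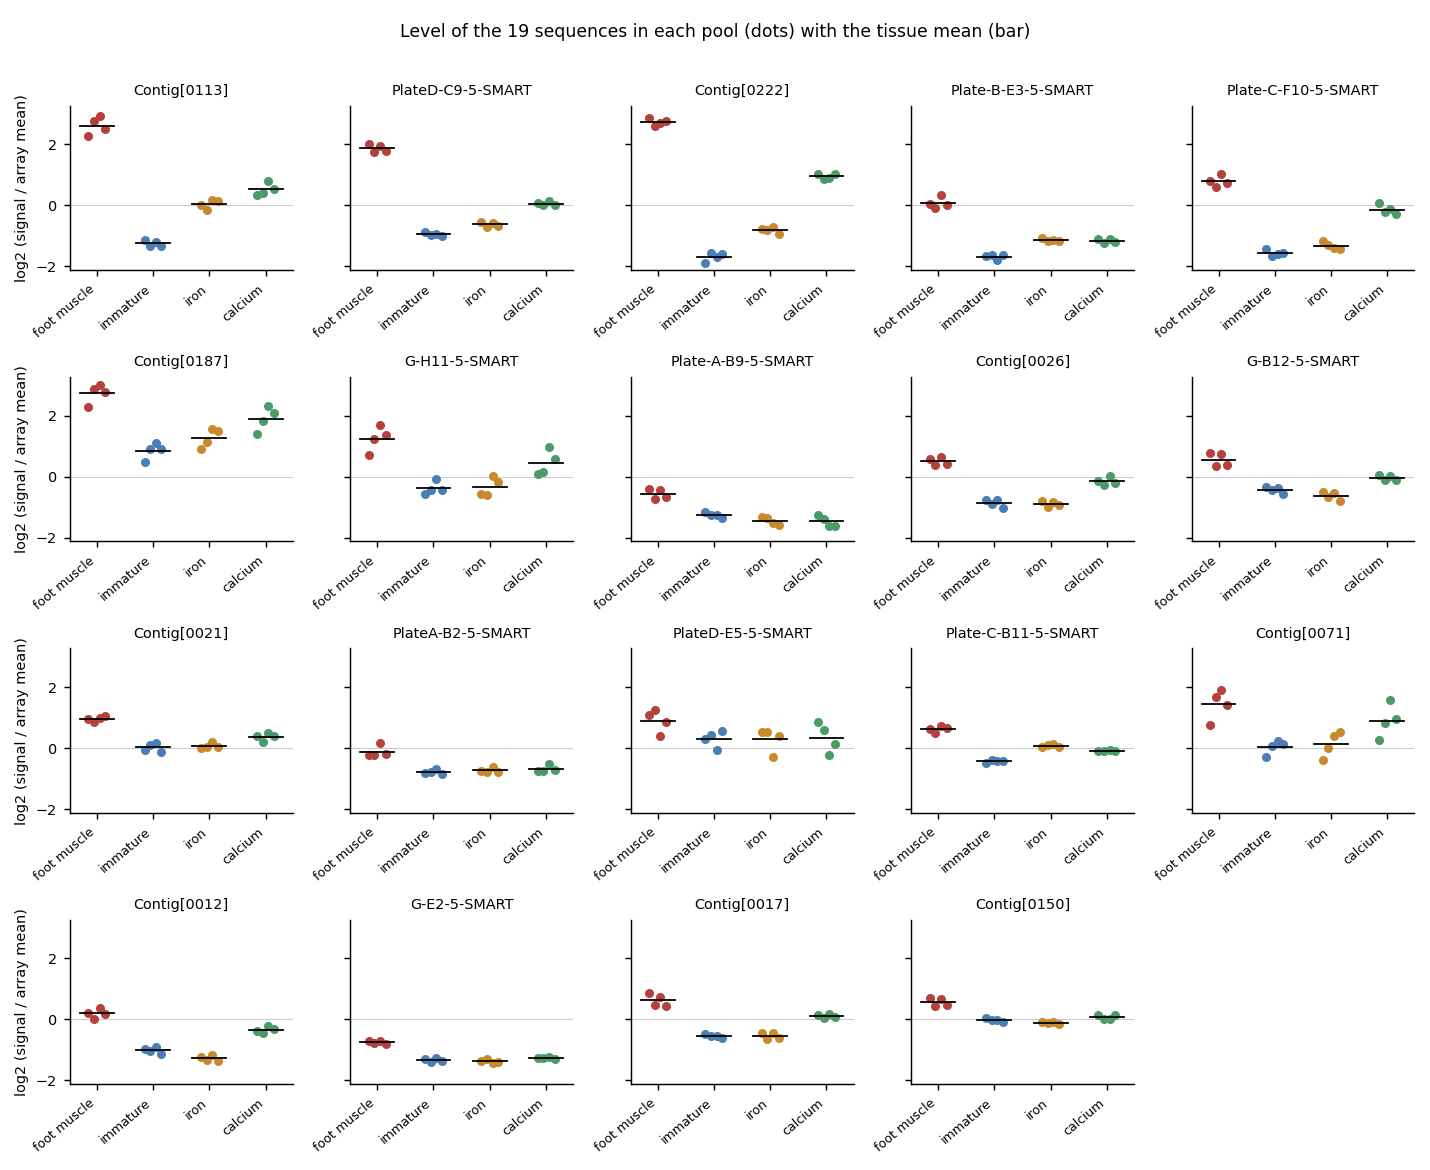
Level of each of the 19 sequences, as log2 of signal over the array mean, in the 4 pools (dots) of foot muscle, immature, iron and calcium, with the tissue mean as a bar. Foot muscle is highest in each panel, and in most panels calcium is the next highest, as in Contig[0222] with a calcium mean of 0.96 against 2.73 in foot muscle.

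The next 7 sequences by the size of the gap were Contig[0187], G-H11-5-SMART, Plate-A-B9-5-SMART, Contig[0026], G-B12-5-SMART, Contig[0021] and PlateA-B2-5-SMART, with foot muscle 0.84 to 0.56 above the nearest section. Contig[0187] was the brightest sequence of the 19 in every radula section, with 2.74 ± 0.31 in foot muscle, against 0.85 ± 0.25 in immature, 1.27 ± 0.31 in iron and 1.91 ± 0.40 in calcium (SD, n = 4 each). Plate-A-B9-5-SMART was among the dim ones, with -0.55 ± 0.16 in foot muscle, against -1.26 ± 0.08 in immature, -1.44 ± 0.13 in iron and -1.46 ± 0.17 in calcium (SD, n = 4 each), and it was the only 1 of the 19 whose nearest section was immature. In all, 8 of the 19 lay below the array mean in every section, and 3 (Plate-A-B9-5-SMART, PlateA-B2-5-SMART and G-E2-5-SMART) lay below it in foot muscle too.

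The pools of foot muscle all lay above the 12 radula pools for 15 of the 19 sequences, against 15.0% of all 493, a count on the same difference that chose the members. The 4 with overlap were Contig[0187], G-H11-5-SMART, PlateD-E5-5-SMART and Contig[0071]. For 4 sequences (Contig[0113], PlateD-C9-5-SMART, Contig[0222] and Plate-B-E3-5-SMART) foot muscle was at least 2-fold above each section. The smallest gaps inside the threshold were 0.53 for G-E2-5-SMART, 0.51 for Contig[0017] and 0.50 for Contig[0150]. Just outside it were Contig[0021]_a at 0.45, PlateD-G9-5-SMART at 0.44 and PlateE-B9-5-SMART at 0.40, so that no break in the values separated the 19 from the next sequences.

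The probes of a sequence share their target and are not replicates of a tissue, but each reads a different stretch of it. Of the 87 probes, 63 had a gap of at least 0.5 on their own and 24 a smaller one, and all 87 had foot muscle above the highest section, by 0.06 to 2.43. The sequences were chosen on this difference averaged over their probes, and the share over all probes was not counted. By sequence means, foot muscle was above the highest section for 295 of all 493 sequences. For 4 sequences, Contig[0113], PlateD-C9-5-SMART, Contig[0222] and G-H11-5-SMART, every probe reached 0.5. The 5 probes of Contig[0113] had gaps of 1.49 to 2.43 although their foot muscle levels ran between 0.19 and 3.97. The 24 probes under 0.5 were dimmer, with a median foot muscle level of -0.45, against 1.32 for the other 63. In foot muscle 16 of the 24 lay below the array mean, as did 11 of the 63. No background was measured on these arrays, so a difference between dim probes is one of signal and may understate the difference in RNA. The part of background in the smaller gaps was not tested.

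**Figure D2:**
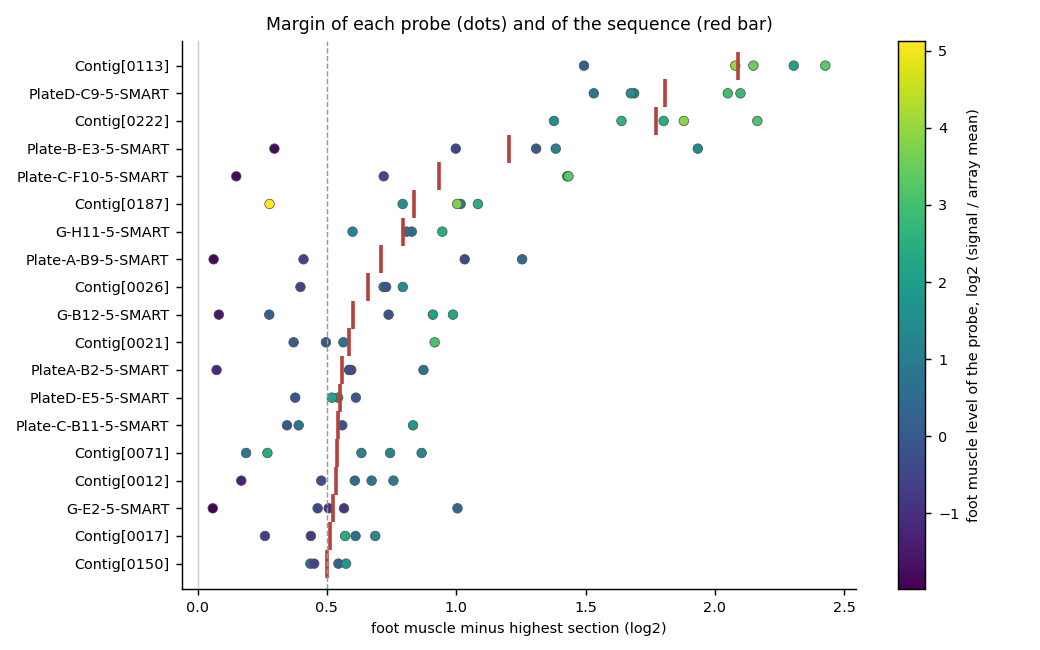
Gap between foot muscle and the highest section for each of the 87 probes (dots), coloured by the probe's foot muscle level, with the gap of the whole sequence as a red bar. The horizontal axis is log2, the dashed line marks 0.5, and every dot lies above 0.

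The differences among the 3 radula sections were not used to choose the sequences and could be tested, although the rule bounds the level of every section from above. In a limma fit over all 493 sequences, with Benjamini-Hochberg adjusted p under 0.05, the F-test among the sections called 14 of the 19, against 42.6% of all sequences. With the dimmest sequences left out (those up to the 0.25 quantile of mean level), the F-test called 14 of the 19, against 53.9% of the sequences kept. Most of these differences placed calcium highest. Calcium was the highest section for 16 of the 19 (47.5% of all sequences), iron for 2 (20.5% of all) and immature for 1 (32% of all). Immature was the lowest for 12, iron for 6 and calcium for 1. Over all 493 sequences the lowest was immature for 179, iron for 221 and calcium for 93.

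Calcium was higher than immature for 14 of the 19 sequences, where 24.5% of all sequences were called higher, and it was called lower for 0 of the 19, where 13.8% of all were. With the dimmest sequences left out, calcium was called higher for 14 of the 19 and for 31.2% of the sequences kept. The median difference was 0.66 on the log2 scale over the 19 and 0.02 over all 493. Contig[0222] had the largest, a 6.23-fold rise in calcium over immature (log2 2.64, SE 0.07, limma adjusted p = 1.7e-14). With normexp background correction the fold was 10.8, and since its immature level is that of a dim probe on arrays without background measurements, the folds are of signal and not of RNA. Contig[0113] was 3.41-fold higher in calcium (log2 1.77, SE 0.13, limma adjusted p = 4.93e-09) and Plate-C-F10-5-SMART 2.69-fold higher (log2 1.43, SE 0.09, limma adjusted p = 7.82e-10). PlateD-C9-5-SMART was 2.01-fold higher, and the other 10 rose by 0.35 (Plate-C-B11-5-SMART) to 1.06 (Contig[0187]) on the log2 scale. Plate-A-B9-5-SMART (-0.20), PlateA-B2-5-SMART (0.10), PlateD-E5-5-SMART (0.04), G-E2-5-SMART (0.06) and Contig[0150] (0.09) did not pass the test.

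Calcium was also higher than iron for 13 of the 19, where 19.7% of all sequences were called higher, and it was lower for 1, Plate-C-B11-5-SMART, where 14.0% of all were called lower. With the dimmest sequences left out, calcium was called higher than iron for 13 of the 19 and for 25.2% of the sequences kept. Contig[0222] was 3.38-fold higher in calcium than in iron (log2 1.76, SE 0.07, limma adjusted p = 7.74e-12), and Plate-C-F10-5-SMART differed by 1.19 on the log2 scale (limma adjusted p = 1.64e-08). Contig[0012] followed with 0.93 (limma adjusted p = 3.04e-08). For 12 of the 19 sequences calcium was called above both other sections, against 15.6% of all. Contig[0012] was 1 of these 12 and had its lowest level in iron, with -0.39, -0.44, -0.21 and -0.33 in calcium, against -0.97, -1.02, -0.89 and -1.12 in immature and -1.23, -1.32, -1.17 and -1.37 in iron pools. The 3 sections of Contig[0012] did not overlap, and all its pools of foot muscle, at 0.22, 0.01, 0.38 and 0.17, lay above them.

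As many or fewer of the 19 were called under other scalings, and the largest difference, that of Contig[0222], changed little. Its calcium minus immature difference was 2.72 with median, 2.75 with 75th percentile and 2.86 with no further scaling, and 2.53 with cyclic loess. That of Contig[0187], 1.06 as reported, was 0.93 with median, 0.96 with 75th percentile and 1.07 with no further scaling, and 0.61 with cyclic loess. It did not pass with median scaling or cyclic loess. Calcium was called higher than immature for 8 of the 19 with median scaling (10.5% of all sequences), 9 with cyclic loess (16.2%), 12 with 75th percentile (14.8%) and 14 with no further scaling (17.6%), and lower for 0 in each. Against iron it was called higher for 7 with median scaling (6.90% of all sequences), 7 with cyclic loess (11.6%), 8 with 75th percentile (12.4%) and 8 with no further scaling (12%), and lower for 1 with cyclic loess and 0 with the other scalings. Of all sequences called between calcium and immature, 64.0% were higher in calcium with the scaling used here, 66.4% with no further scaling and 58.4% with 75th percentile scaling, against 46.8% with median scaling and 49.4% with cyclic loess. Between calcium and iron the share was 58.4% with the scaling used here, 57.8% with no further scaling and 57.0% with 75th percentile scaling, against 39.1% with median scaling and 42.5% with cyclic loess.

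With the 4 disputed arrays left out, the F-test called 11 of the 19, against 35.5% of all sequences, and calcium was called higher than immature for 11 (19.1% of all) and higher than iron for 10 (17.6% of all). Contig[0222] then differed by 2.70 between calcium and immature and Contig[0113] by 1.71, close to the values from all 16 arrays. With the scanner files as recorded and no background correction, limma's F-test called 0 of the 19, with 3 at an unadjusted p under 0.05, while 11.4% of all sequences were called. Calcium was then called higher than immature for 0 of the 19, with 0 at an unadjusted p under 0.05, and for 0% of all sequences. Contig[0222] had -0.31 in calcium and -0.42 in immature arrays so assigned, a log2 difference of 0.11 with an SE of 0.72. The higher calcium level was thus called for most of the 19 with the value table and with the undisputed arrays, and for none with the scanner files as recorded. In the recorded files replicates 2 and 4 of immature and calcium trade places, so each group mixes arrays that the value table keeps apart. A difference between the value table's groups then largely cancels, and the 0 calls are not a separate test of it. Small differences without a call turned with the undisputed arrays, such as iron minus immature at G-H11-5-SMART (-0.01) and Contig[0017] (-0.03) and calcium minus iron at Plate-B-E3-5-SMART (0.02).

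**Figure D3:**
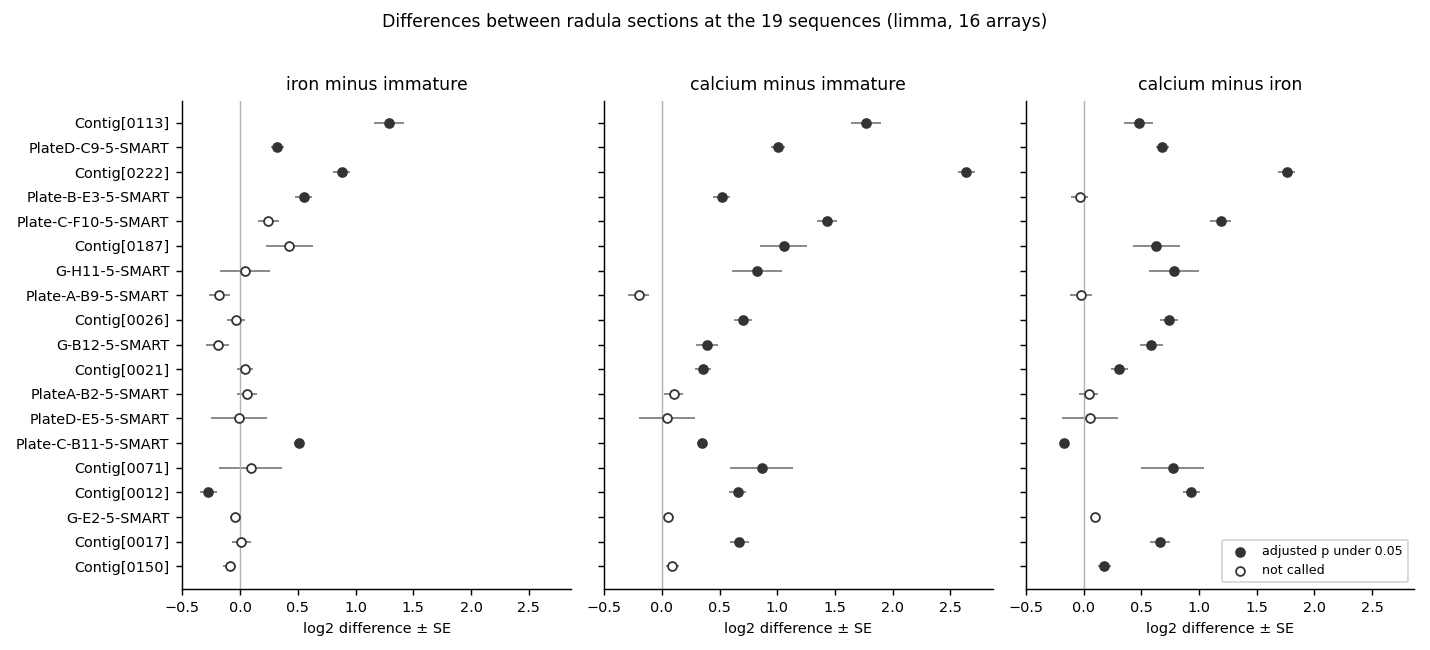
Log2 differences between radula sections at the 19 sequences with their standard errors, from the limma fit over 16 arrays, in 3 panels (iron minus immature, calcium minus immature, calcium minus iron). Filled dots had an adjusted p under 0.05, and in the middle panel 14 of the 19 lie to the right of 0 as filled dots.

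Between iron and immature the 19 sequences differed less. Iron was higher for 5, where 17.2% of all sequences were called higher, and lower for 1, where 13.0% of all were called lower, and the median difference was 0.05 over the 19. Contig[0113] rose most, 2.45-fold (log2 1.29, SE 0.13, limma adjusted p = 2.81e-07), and Contig[0222] rose 1.84-fold (limma adjusted p = 3.67e-08). Plate-B-E3-5-SMART rose 1.47-fold (limma adjusted p = 9.16e-06) and its difference between calcium and iron (log2 -0.03, SE 0.07, limma adjusted p = 0.814) did not pass the test. PlateD-C9-5-SMART rose by 0.32 on the log2 scale, and Contig[0012] fell by 0.27 (limma adjusted p = 0.00842). The fall of Contig[0012] did not pass with median (-0.26), 75th percentile (-0.34), cyclic loess (-0.31) or no further scaling (-0.18). The rise of PlateD-C9-5-SMART did not pass with median scaling (0.42), 75th percentile scaling (0.33) or the median of probes (0.39).

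Plate-C-B11-5-SMART and Plate-B-E3-5-SMART had their highest radula level in iron, and calcium was called lower than iron for Plate-C-B11-5-SMART alone. The levels of Plate-C-B11-5-SMART were 0.61, 0.50, 0.72 and 0.66 in foot muscle, against -0.47, -0.40, -0.42 and -0.43 in immature, 0.05, 0.11, 0.13 and 0.04 in iron and -0.10, -0.09, -0.06 and -0.09 in calcium pools. No tissues overlapped there. Iron was 1.43-fold above immature (limma adjusted p = 3.23e-08), and calcium lay 0.17 below iron on the log2 scale (limma adjusted p = 0.00518). The calcium step did not pass with the disputed arrays left out (-0.16, limma adjusted p = 0.0687), with median (-0.26), 75th percentile (-0.14) or no further scaling (-0.20), or with the median of a sequence's probes (-0.17). The iron step did not pass with median scaling (0.60, limma adjusted p = 0.0586).

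Deviations of pools with the same number in the labels correlated across probes for every combination of tissues, foot muscle included. All 4 pairs had r over 0.1, except for calcium and immature with 3 of 4. The fit with the replicate number as a block is therefore given where it moved a call. It called 10 of the 19 between iron and immature (7 higher, 3 lower in iron), and 37.5% of all sequences, against 30.2% without the block. The added sequences were Contig[0187] (0.43, limma adjusted p = 0.000113 with the replicate block) and Plate-C-F10-5-SMART (0.24, limma adjusted p = 0.0106), both higher in iron, and G-B12-5-SMART (-0.20, limma adjusted p = 0.00682) and Plate-A-B9-5-SMART (-0.18, limma adjusted p = 0.0456), both lower. Between calcium and iron it added G-E2-5-SMART (0.10, limma adjusted p = 0.0239).

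The spread within a tissue followed the replicate number for several of the 19, and it was widest for 4 sequences. Their pooled SD within tissues was 0.32 for Contig[0187], 0.34 for G-H11-5-SMART, 0.43 for Contig[0071] and 0.38 for PlateD-E5-5-SMART, against a median of 0.13 over the 19 and 0.09 over all 493 sequences. Their probes with the widest gap are shown because these sequences had the widest spread. The probes lie on different clones or contigs, and whether those are related outside the probes was not tested.
Contig[0187], bases 890 to 924: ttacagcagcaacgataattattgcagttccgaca
G-H11-5-SMART, bases 327 to 361: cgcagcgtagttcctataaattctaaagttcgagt
Contig[0071], bases 86 to 125: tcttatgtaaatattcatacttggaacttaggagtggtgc
PlateD-E5-5-SMART, bases 142 to 176: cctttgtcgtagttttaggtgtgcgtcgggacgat

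Contig[0187] had 2.30, 2.87, 3.02 and 2.77 in foot muscle replicates 1 to 4, against 0.50, 0.90, 1.09 and 0.91 in immature, 0.89, 1.15, 1.56 and 1.49 in iron and 1.39, 1.83, 2.32 and 2.08 in calcium. Replicate 1 was the lowest and replicate 3 the highest in every tissue. Contig[0071] had the same ends in foot muscle, immature and calcium, with 0.77, 1.68, 1.91 and 1.40 in foot muscle, against -0.28, 0.05, 0.24 and 0.13 in immature, -0.40, 0.00, 0.39 and 0.52 in iron and 0.27, 0.81, 1.56 and 0.96 in calcium. PlateD-E5-5-SMART ran the other way, with 1.08, 1.26, 0.40 and 0.84 in foot muscle, against 0.30, 0.43, -0.07 and 0.56 in immature, 0.51, 0.54, -0.28 and 0.40 in iron and 0.87, 0.58, -0.21 and 0.14 in calcium. Its replicate 3 was the lowest in every tissue.

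The replicate number held 92.3% of the variance within tissues for Contig[0187], 85.4% for G-H11-5-SMART, 82.7% for Contig[0071] and 82.4% for PlateD-E5-5-SMART, against medians of 69.4% over the 19 and 60.4% over all sequences. Members with a narrower spread had similar shares, with 84.9% for PlateA-B2-5-SMART, 84.8% for Contig[0026] and 81.9% for PlateD-C9-5-SMART. Deviations from the tissue means over the 16 arrays, which share those means and the pools, correlated at 0.97 between Contig[0187] and Contig[0071], 0.91 between Contig[0187] and G-H11-5-SMART and -0.84 between G-H11-5-SMART and PlateD-E5-5-SMART. Sequences outside the 19 moved in the same way. The mean r with Contig[0187], G-H11-5-SMART and Contig[0071] was 0.947 for Contig[0185] and 0.897 for PlateC-E6-5-SMART. Within each replicate number, foot muscle was above all 3 sections for these 4 sequences, as for the other 15. The members were chosen on this difference averaged over the pools of each tissue, so the count is a description. The share over all sequences was not counted within replicate numbers. By tissue means, foot muscle was above the highest section for 295 of all 493. For Contig[0071] the gap within a number was 0.36 to 0.87. The sources used here do not say whether a replicate number stands for the same 3 animals throughout, and the part of the animals in this pattern was not tested.

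**Figure D4:**
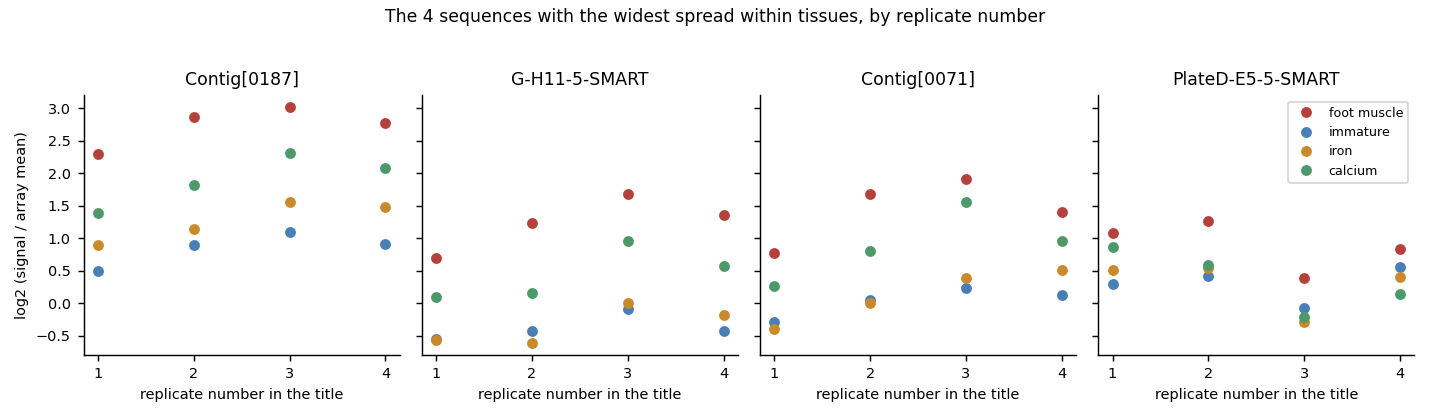
Levels of Contig[0187], G-H11-5-SMART, Contig[0071] and PlateD-E5-5-SMART, as log2 of signal over the array mean, by the replicate number in the sample title, with 1 dot per pool coloured by tissue. Replicate 1 is lowest in all 4 tissues for Contig[0187], and replicate 3 is lowest in all 4 for PlateD-E5-5-SMART.

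Some calls of Contig[0071] and Contig[0187] in the fit without the replicate block were lost when 1 array was left out. For Contig[0071], calcium minus iron was 0.77 with a limma adjusted p of 0.0381, and it did not pass without iron replicate 1 (0.60), iron replicate 2 (0.74), calcium replicate 2 (0.81), calcium replicate 3 (0.54) or calcium replicate 4 (0.75). Its calcium minus immature difference of 0.87 did not pass without immature replicate 1 (0.76) or calcium replicate 3 (0.64). For Contig[0187], calcium minus iron was 0.63 (limma adjusted p = 0.0233) and did not pass without iron replicate 1 (0.51), iron replicate 2 (0.59), calcium replicate 3 (0.49) or calcium replicate 4 (0.57). With the replicate block, which takes up the shared movement of same-numbered pools, calcium minus iron had a limma adjusted p of 2.83e-06 for Contig[0187] and 0.000199 for Contig[0071]. G-H11-5-SMART lost neither of its calls, and PlateD-E5-5-SMART had none. Contig[0150], with a small difference of 0.18, lost its call, at 0.16 each time, without iron replicate 4, calcium replicate 1 or calcium replicate 4. No other call of the 19 between sections was lost when any 1 of the 16 arrays was left out.

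In sequence features the 19 resembled the array, except that more were contigs. Contigs made up 9 of the 19 (47.4%), against 22.1% of all sequences. Their median length was 604 bases, with a range of 177 to 1441, against 606 over all, and the median GC content of their probes was 42.9%, against 42.1% over all probes. No probe of 1 member shared a run of 16 or more bases with a probe of another member. The probes of 18 members shared none with a probe of any other sequence on the array. Stretches outside the probes were not compared.

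The exception was Contig[0021], which shared up to 34 bases with probes of Contig[0021]_a and Plate-C-F1-5-SMART, both outside the 19. The 3 probes are shown because they carry a common run of 29 bases, in capitals.
Contig[0021], bases 60 to 94: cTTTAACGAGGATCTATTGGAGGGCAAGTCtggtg
Contig[0021]_a, bases 60 to 94: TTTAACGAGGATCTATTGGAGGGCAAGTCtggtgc
Plate-C-F1-5-SMART, bases 50 to 84: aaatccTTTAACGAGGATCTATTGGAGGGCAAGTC

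The probe of Contig[0021] had a mean level of 0.13 in foot muscle, against -0.73 in immature, -0.74 in iron and -0.24 in calcium. That of Contig[0021]_a had 0.52 in foot muscle, against -0.43 in immature, -0.53 in iron and 0.00 in calcium. That of Plate-C-F1-5-SMART had -1.12 in foot muscle, against -1.57 in immature, -1.56 in iron and -1.23 in calcium. All 3 had the same order, with foot muscle first and calcium next, at different brightness. Because the probes share bases, these are not independent measurements.

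How many sequences passed the threshold depended on how the arrays were scaled, while the direction did not. All 19 had foot muscle above the highest section with the disputed arrays left out, with the scanner files as recorded without background correction, with normexp background correction, and under median, 75th percentile, cyclic loess or no further scaling. This is the difference that chose them. Over all 493 sequences foot muscle was above the highest section for 295 as reported and 280 with the disputed arrays left out. The count was 327 with the scanner files as recorded and 292 with normexp. It was 268 with median, 338 with 75th percentile, 189 with cyclic loess and 329 with no further scaling. The median gap of the 19 was 0.60 as reported, 0.57 with the disputed arrays left out and 0.70 with normexp. It was 0.49 with 75th percentile scaling, 0.44 with no further scaling, 0.40 with cyclic loess and 0.29 with median scaling. The smallest gap under any of these was 0.05, under median scaling. The gap over all 493 sequences moved with the scaling too, with a median of 0.04 as reported, 0.03 with median scaling, 0.25 with 75th percentile scaling, 0.22 with no further scaling and -0.03 with cyclic loess.

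The foot muscle arrays had a narrower spread of probe signals before scaling than the radula arrays. The 75th percentile of their log2 signals lay 0.62 ± 0.14 above the array median, against 0.86 ± 0.16 in immature, 0.94 ± 0.27 in iron and 0.82 ± 0.27 in calcium arrays (SD, n = 4 each), and quantile scaling makes these spreads equal. The part of this difference in the gaps was not tested beyond the scalings given. Contig[0113], PlateD-C9-5-SMART, Contig[0222], Plate-B-E3-5-SMART and Plate-C-F10-5-SMART met the 0.5 threshold in all 27 settings in which the rule was repeated at that threshold. Contig[0150] met it in 13, PlateD-E5-5-SMART in 16 and Contig[0017] in 18, and the other 11 in 20 to 26.

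**Figure D5:**
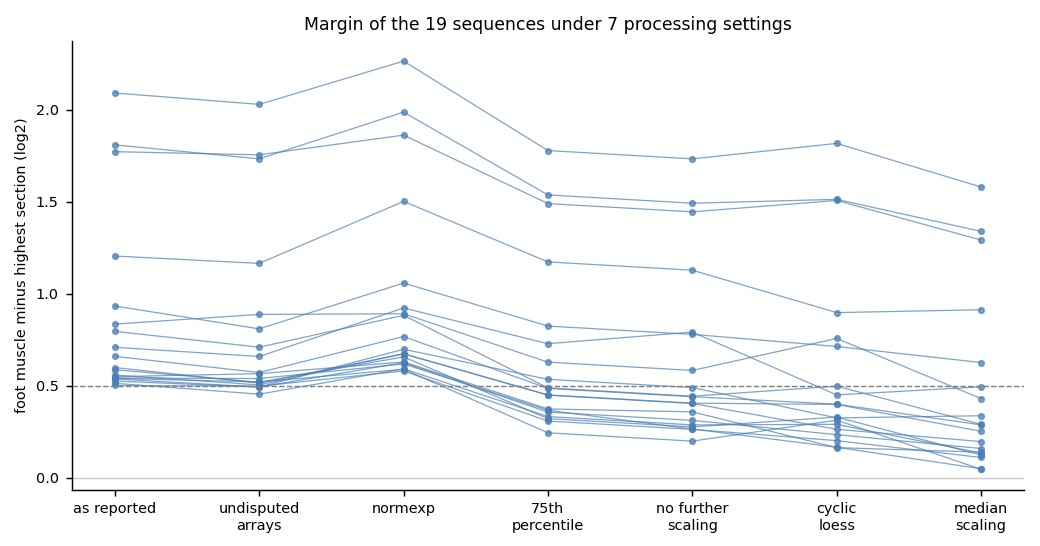
Gap between foot muscle and the highest radula section (log2) for each of the 19 sequences (lines) under 7 processing settings, with the 0.5 threshold as a dashed line. Every gap is above 0, and 5 of the 19 stay above the threshold under median scaling, the setting with the smallest gaps.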

How the data were processed

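Total RNA was prepared with Trizol, and the Kreatech ampULSe kit gave Cy5-labelled targets, per the labels. The deposited value table holds a ratio, each probe's mean foreground over its array's mean, linear and not background-corrected, as recovered from the values. Per the file headers, the scanner files hold linear foreground intensity without background or detection columns. The extraction software is not given in the sources used here. Columns were taken as log2 values, quantile-normalized, averaged over the probes of each of 493 sequences and fitted with limma 3.58.1 (R 4.3.3) with a mean per tissue over 16 arrays. Tests were two-sided with Benjamini-Hochberg adjustment over all sequences and a threshold of 0.05. The value table was the main source because the selection uses it and its assignment of 4 arrays differs from the scanner files. The p-values measure the spread between pools, and the number of arrays limits the precision. The fit was tested on simulated data. Deviations of same-numbered arrays correlated across probes at r = 0.218 to 0.671 for iron and immature and 0.463 to 0.677 for calcium and iron. For calcium and immature r was -0.134 to 0.505. With foot muscle it was 0.193 to 0.43 for immature, 0.164 to 0.569 for iron and 0.12 to 0.587 for calcium. The main fit treated no arrays as paired in any comparison, and the replicate number as a block was an alternative. Members and lists were chosen with earlier results of these data known. Sequences named were the 12 with the widest gap, the 10 with the smallest F-test p, the 3 members nearest the threshold and the 3 sequences just outside, and the few others were chosen after their values were seen. Alternatives are given at the end.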

Additional observations from a re-analysis of the deposited data

Results flagged for a closer look

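Within the 76 groups of 4 pools (19 sequences in 4 tissues), 4 held a pool whose distance from the others was large against the group's range, by a criterion that chance meets in about 5% of groups. PlateA-B2-5-SMART was high in replicate 3 of 3 tissues. Its level was 0.161 in foot muscle replicate 3, against -0.243 to -0.200 in the other foot muscle pools. It was -0.606 in iron replicate 3, against -0.782 to -0.759 in the other iron pools, and -0.512 in calcium replicate 3, against -0.762 to -0.728 in the other calcium pools. PlateD-E5-5-SMART was low in iron replicate 3, at -0.283, against 0.404 to 0.542 in the other iron pools.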

How the results depend on the processing

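Against 19 sequences kept as reported, the selection kept 36 with the scanner files as recorded and normexp, 5 with median, 9 with 75th percentile and 8 with no further scaling, 7 with cyclic loess, 56 at a threshold of 0.25 and 4 at 1, and 14 to 20 with 1 array left out. The fewest, 14, came without foot muscle replicate 3. With the scanner files as recorded, with and without normexp, the F-test called 0 of the 19 in both (10.5% and 11.4% of all sequences). Iron against immature gave 1 in both (11.6% and 11.8% of all), lower in iron with normexp and higher without. Calcium against immature gave 0 in both (0% of all) and calcium against iron 0 in both (11.4% and 11.8% of all). At an unadjusted p under 0.05 limma gave 3, 5, 0 and 3 of the 19 in both. Over all 493 sequences it gave 80, 98, 0 and 88 with normexp, and 84, 96, 0 and 88 without. Since these files trade replicates 2 and 4 between immature and calcium, the value table's difference between those groups largely cancels there. Small differences without a call turned under other settings too. Calcium minus immature at PlateD-E5-5-SMART was 0.04 as reported, -0.07 with median scaling and -0.27 with cyclic loess. At Contig[0150] it was 0.09 as reported and -0.09 with cyclic loess. Among the 25 called differences of the 10 sequences with the smallest F-test p, reversals occurred with the scanner files as recorded alone. With normexp and without, they were -0.277 and -0.384 for Contig[0222] and -0.212 and -0.176 for PlateD-C9-5-SMART (iron minus immature), -0.0551 and -0.0361 for Contig[0113], -0.0477 and -0.0301 for Contig[0012] and -0.0225 and -0.0102 for Contig[0026] (calcium minus immature), and -0.578 and -0.424 for Contig[0113] (calcium minus iron). PlateD-C9-5-SMART reversed with normexp alone, at -0.000513 (calcium minus immature). Median scaling gave 9 calls by the F-test (29% of all sequences) and 3 for iron against immature (3 higher, 0 lower, 21.5% of all). It gave 8 for calcium against immature (22.5% of all) and 7 for calcium against iron (17.6% of all). Calcium against immature gave 9 with cyclic loess (32.9% of all). Calcium against iron gave 8 with cyclic loess (27.2% of all), 8 with 75th percentile (21.7%) and 8 with no further scaling (20.7%). The cause of these changes was not tested. The median of all sequences moved by over 0.1 with 75th percentile scaling, to -0.129 for iron minus immature and 0.195 for calcium minus iron, and with no further scaling, to 0.166 for calcium minus immature and 0.138 for calcium minus iron. The replicate block gave 10 calls for iron against immature (37.5% of all sequences). It added Plate-A-B9-5-SMART to calcium against immature (43.8% of all called). To the F-test it added Plate-A-B9-5-SMART and Contig[0150] (50.9% of all called). It ended none of the calls reported for the 19. With 1 array left out, calls numbered 13 to 15 (F-test), 6 to 7 (iron against immature), 13 to 15 (calcium against immature) and 11 to 14 (calcium against iron). Of all sequences, 41.4% to 43.2% were then called by the F-test and 27.8% to 31.2% between iron and immature. Between calcium and immature 176 to 191 of all 493 were called, and between calcium and iron 156 to 168. Plate-C-F10-5-SMART gained a call between iron and immature in 5 of these 16 fits. With the array sector as a block, all 25 called differences of the 10 sequences with the smallest F-test p kept their call and direction. Calls between calcium and iron among the 19 fell to 13 (33.1% of all sequences), with the loss of Contig[0071] (0.77, limma adjusted p = 0.0554). The scanner assignment without background correction and the handling of ties were chosen after seeing the data.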
